A study of Schizosaccharomyces pombe with 9 samples.

Results

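The count table held 145 genes of the subtelomeric regions of chromosomes I and II of the fission yeast Schizosaccharomyces pombe, out of 6988 annotated features. They were chosen by position alone, as every feature whose systematic identifier begins with 1 of 13 clone prefixes used at the chromosome ends. By gene order in the reference annotation, 49 belonged to the left end of chromosome I, 28 to its right end, 42 to the left end of chromosome II and 26 to its right end. Of the 144 with an entry in that annotation, 131 were protein-coding genes and 13 were pseudogenes, and 47 of all members carried a gene symbol.

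Poly(A)+ RNA was sequenced from h- cells in vegetative log-phase growth at 30 °C in the rich medium YES, in 3 strains with 3 biological replicates each. The groups were the wild-type strain Sp1 (WT), the strain ASY240 with the genotype rsm1∆::natMX, called the rsm1-labelled strain here, and the strain IAP105, called the nup211 mutant, which carries the allele nup211-1435* and a wild-type asp1 gene with a kanMX marker. Each genotype was 1 strain, and WT lacked both drug-resistance markers, so a marker and the mutation beside it cannot be told apart. Rsm1 is a factor of mRNA export, and Nup211 is the fission yeast relative of the nuclear pore basket proteins Mlp1 and TPR.

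Depth was 20984220 to 28105939 counts per library, at which 3 counts corresponded to 0.106 to 0.139 CPM, the counts scaled to a common library size with TMM factors. Reads of rsm1 itself were still present in its labelled strain, at 31.8 ± 1.25 CPM against 36.7 ± 0.398 in WT and 44.1 ± 0.932 in the nup211 mutant (mean ± SD, n = 3, as throughout), and the labels do not say which stretch was deleted. Directions given for that strain therefore rest on its label. The gene nup211 stood at 180.0 ± 10.5 CPM in WT, 249 ± 16.7 in the rsm1-labelled strain and 267 ± 8.23 in the nup211 mutant, which does not show the allele. Beside it, asp1, of which that mutant carries a marked wild-type copy, had 131 ± 2.28, 149 ± 5.41 and 199 ± 2.13 CPM in the same order. As a check of the h- mating type, the summed level of 6 M-cell genes was 165 to 187 CPM in WT, 132 to 142 in the rsm1-labelled strain and 96.4 to 102 in the nup211 mutant. The sum of 4 P-cell genes was larger, at 624 to 666 CPM in WT, 666 to 687 in the rsm1-labelled strain and 549 to 555 in the nup211 mutant. Of these the protease gene sxa1 made up most, with 605 CPM in WT. The other P-cell genes, map2, map3 and map4, had 6.80, 13.2 and 21.8 CPM in WT. The M-cell genes ran from 0.759 CPM for mfm1 to 70.6 for mam1 in WT. These levels do not settle the mating type, which therefore rests on the labels.

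Subtelomeres are the stretches just inside the telomere repeats. In fission yeast their outermost genes are packed into heterochromatin by the histone methyltransferase Clr4 and its reader Swi6, brought there through RNA interference and the telomere protein Taz1, and further in lies a condensed region that depends on the shugoshin Sgo2. The genes there include the telomere-linked helicase genes tlh1 and tlh2, families copied from end to end, nutrient transporters and cell-surface proteins, and many are kept low in rich medium and are used in nitrogen starvation or stress.

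Most genes close to the telomeres had low counts in all 3 strains. The 69 members within the first 20 rows of the count table from an end, in gene order, had a median level of 0.137 CPM in WT, close to the level of 3 counts, and the 75 further in had a median of 10.3 CPM. Of these 69, 19 had at least 1 CPM in WT and 6 at least 10, up to 59.8 CPM. In the outer 20 rows of the right end of chromosome I the summed level was 106 ± 45.1 CPM in WT and 375 ± 2.03 in the nup211 mutant, of which 26.4 and 315 CPM came from SPAC750.01. Over all 145 the median was 1.03 CPM in WT, 0.757 in the rsm1-labelled strain and 0.854 in the nup211 mutant, while over all features of the table it was 44.8 CPM in WT. No count was found in any library for 12 members, and 11 more had between 1 and 9 counts over the 9 libraries together. At the upper extreme, 9 members exceeded 100 CPM in WT. Per kilobase of annotated exon, the highest WT levels were 625 CPM per kilobase for the aldo-keto reductase gene SPAC977.14c, 338 for the acetyltransferase gene SPAC11D3.02c and 114 for aes1 (SPBPB21E7.07), annotated as a phenazine biosynthesis family protein.

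**Figure D1:**
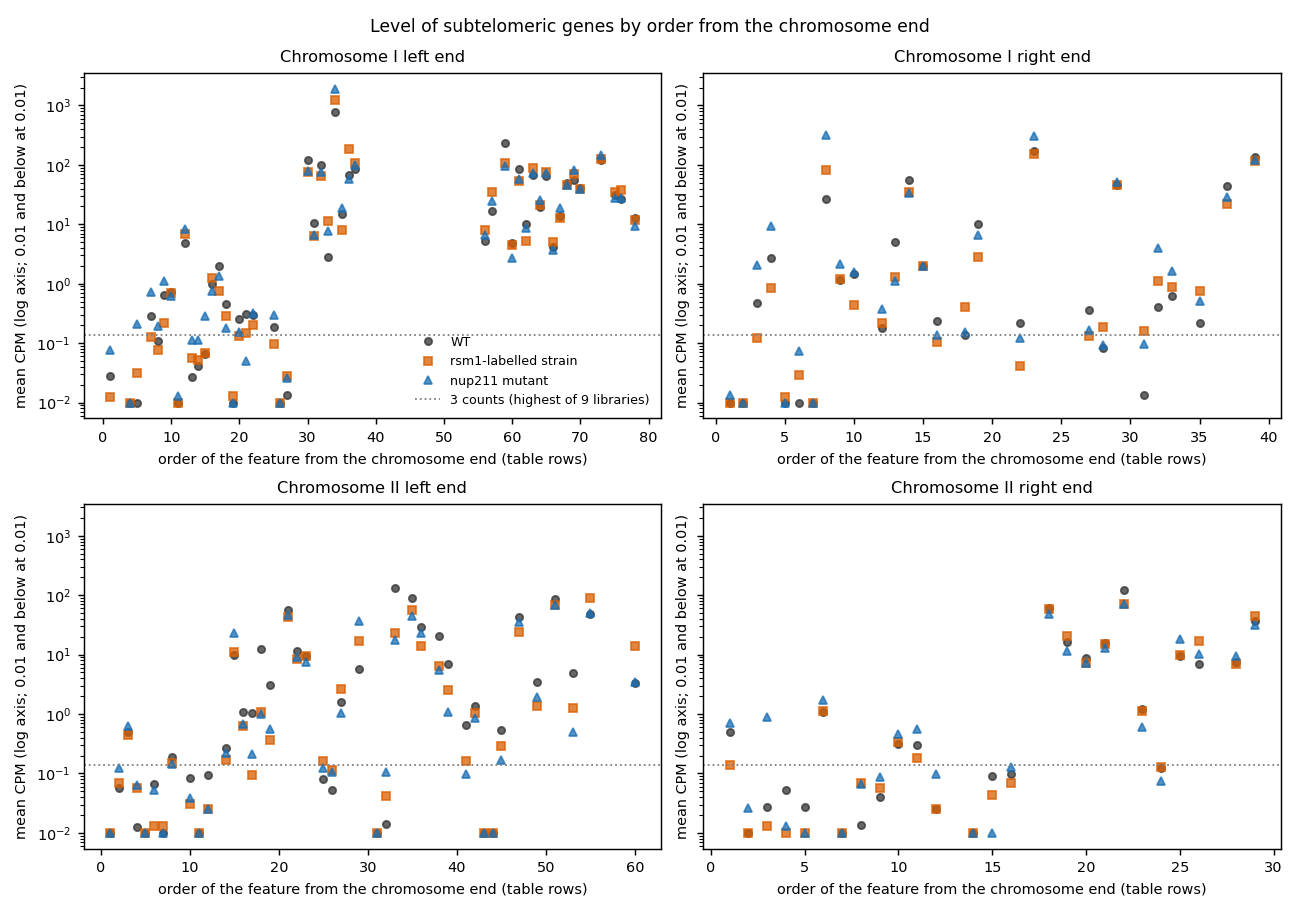
Mean CPM (log axis) of each member in WT, the rsm1-labelled strain and the nup211 mutant, against its order from the chromosome end in rows of the count table, with a panel for each end; the dotted line is the level of 3 counts in the shallowest library, 0.139 CPM. Most members near the ends lie under 1 CPM in all strains, and levels above 10 CPM are found mainly further in.

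Low levels and repeated sequence went together. A protein at least 90% identical to another was found for 60 members, mostly in families that recur at several ends, such as the ftm genes for proteins with transmembrane helices and the telomere-linked helicases. Reads from such copies match more than 1 place, and how the authors treated them is not stated in any source used here, which makes the levels of these genes uncertain. As a measure, the share of each member's exonic 50-base words that occur once in the reference genome was computed. It was under 10% for 44 members, of which 11 had no count and whose median WT level was 0.0271 CPM. It was at least 90% for 77 members, of which 1 had no count and whose median was 9.58 CPM. The part of repeated sequence in the low levels was not tested.

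**Figure D2:**
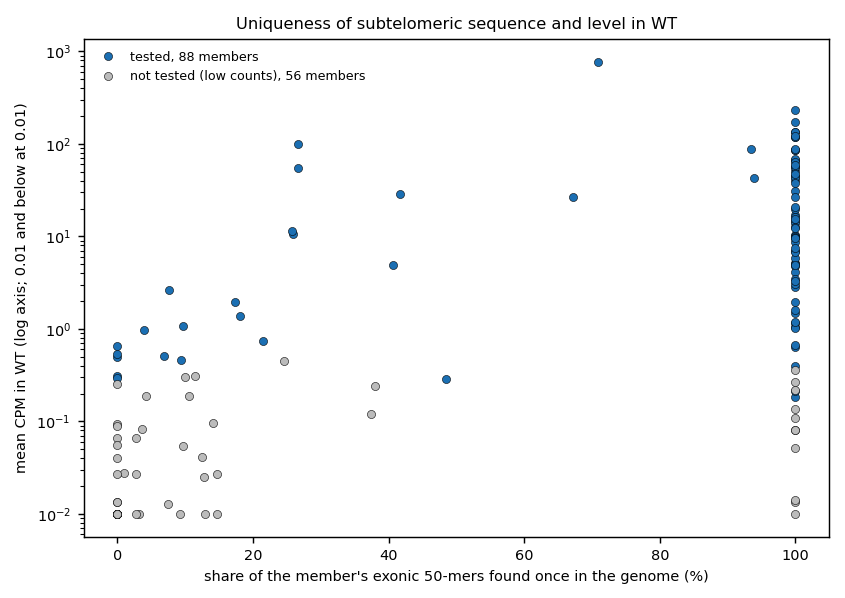
Mean WT level (CPM, log axis) of each member against the share of its exonic 50-base words found once in the reference genome (percent), with members that had enough counts to be tested marked apart from those that had not. Of the 44 members under 10% only 10 were tested, against 66 of the 77 members at 90% or more.

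Differences between strains could be tested for 89 members, of which 33 and 17 lay at the left and right ends of chromosome I and 25 and 14 at the left and right ends of chromosome II. The other 56 fell below the count filter, the highest of them with a mean of 0.896 CPM in 1 group. Of the tested members, 72 had at least 10 counts in every library of all 3 groups, 6 in 2 groups, 7 in 1 group and 4 in none. A member that passed through 1 high group had to differ, so the counts that follow describe the tested members and not all 145. A member was called at an adjusted p under 0.05 in edgeR's quasi-likelihood test with Benjamini-Hochberg adjustment over all features tested, and fold changes are the fitted ones.

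In the rsm1-labelled strain, 21 of the 89 tested members were higher than in WT and 32 were lower, beside 70.7% of all features called, 36.7% higher and 34.1% lower. At least 2-fold changes were found for 9 higher and 15 lower members, beside 7.53% of all features, 4.74% higher and 2.79% lower. In the nup211 mutant, 24 members were higher than in WT and 38 lower, beside 64.9% of all features called, 32.9% higher and 32.0% lower. There 10 members were at least 2-fold higher and 10 at least 2-fold lower, beside 6.38% of all features, 3.37% higher and 3.00% lower. The median log2 fold change of the tested members was -0.13 in the first comparison and -0.17 in the second, and that of all features was 0.01 in both. The comparisons share the WT libraries, so their calls are only set side by side: 13 members were called higher in both, 27 lower in both, 5 in opposite directions and 19 in neither. The share of all features in each of these classes is not given here, so nothing is read from these counts. Under scaling by total counts, which moved the median of all features by 0.14 and 0.13, the members split into 27 higher and 28 lower in the rsm1-labelled strain, and into 29 higher and 26 lower in the nup211 mutant. Under that scaling 3135 of all features were called higher and 1394 lower in the rsm1-labelled strain. In the nup211 mutant 3065 were higher and 1243 lower.

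The mutants were also compared directly. In the nup211 mutant 27 members were higher and 24 lower than in the rsm1-labelled strain, beside 50.2% of all features called, 24.5% higher and 25.7% lower. At least 2-fold higher were 12 and at least 2-fold lower 5, beside 2.91% of all features, 0.867% higher and 2.04% lower. Among the 72 members with at least 10 counts in every library, 20 were higher and 24 lower, with 5 at least 2-fold higher and 5 at least 2-fold lower. The larger number of higher members among all tested therefore came from those with fewer counts. Without members that have a near-identical copy, 6 were at least 2-fold higher and 5 at least 2-fold lower. Of the 29 tested members in the outer 20 rows, 10 were higher and 2 lower in the nup211 mutant, and of the 59 further in, 17 were higher and 22 lower.

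**Figure D3:**
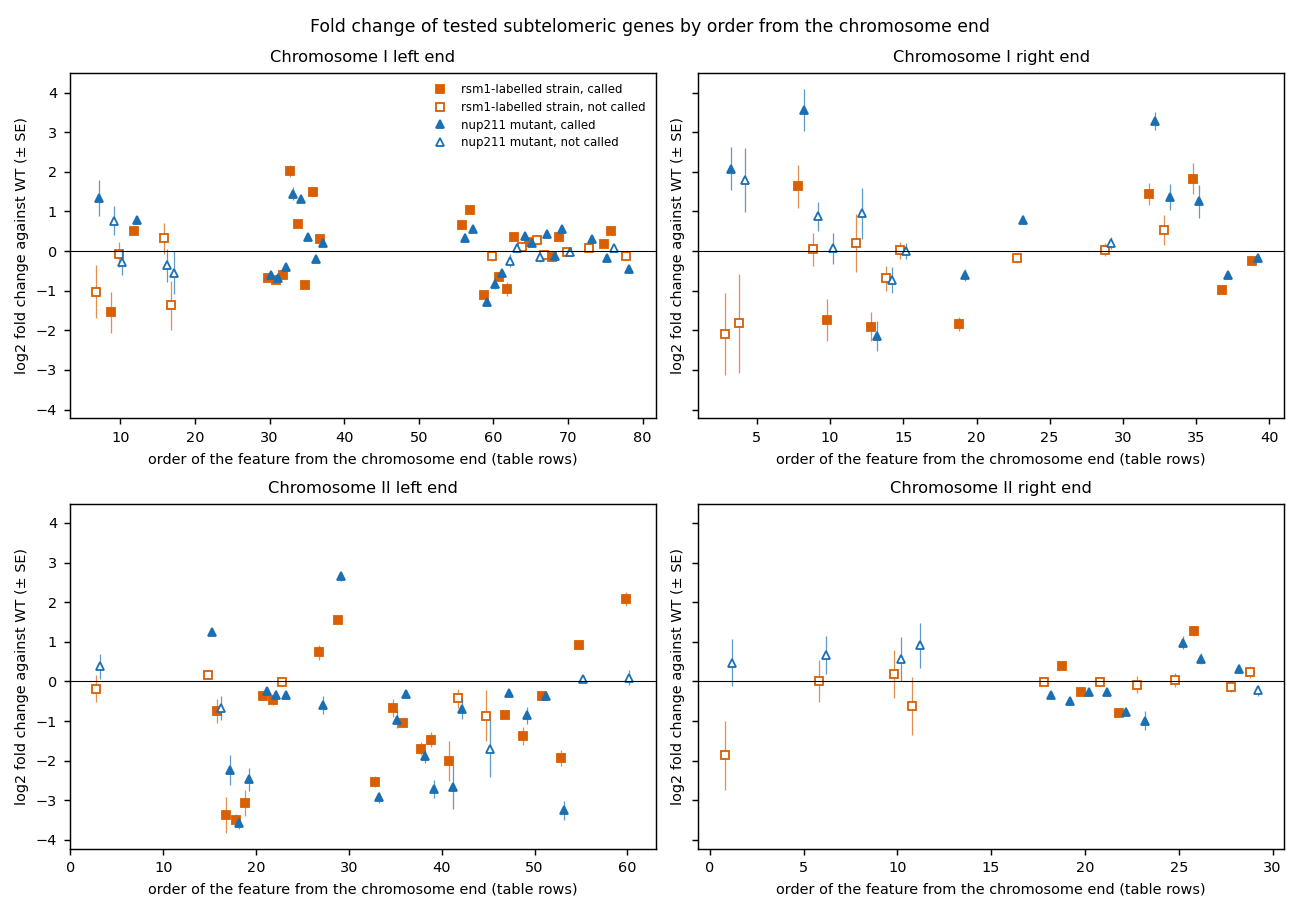
Log2 fold change against WT (± SE) of the tested members that have an order in the annotation, against that order from the chromosome end, for the rsm1-labelled strain and the nup211 mutant, with called and uncalled members marked apart. At the left end of chromosome II most points lie below 0 in both mutants, with medians of -0.74 and -0.67, and at the right end of chromosome I the median of the nup211 mutant is 0.80.

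The left end of chromosome II held a long stretch of genes that were lower in both mutants. From the urea transporter gene SPBPB8B6.02c to the glycoprotein gene pfl7 (SPBC359.04c) stood 26 members, of which 20 were tested. In the rsm1-labelled strain 15 of these 20 fell and 2 rose, and in the nup211 mutant 18 fell and 1 rose, beside 34.1% and 32.0% of all features lower. The stretch was delimited after its values had been seen, so nothing is read from this share.

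Falls of over 2 on the log2 scale were found at the outer edge of this stretch. The transcription factor gene grt1 (SPBPB8B6.04c) had 253, 314 and 350 counts in WT, 27, 27 and 26 in the rsm1-labelled strain, and 24, 24 and 33 in the nup211 mutant. All 6 mutant libraries were far below the WT libraries and overlapped each other. Its log2 fold change was -3.49 (SE 0.15, adjusted p = 4.42e-11) in the rsm1-labelled strain and -3.57 (SE 0.15, adjusted p = 2.98e-11) in the nup211 mutant. The neighbouring gene fah1 (SPBPB8B6.03), for an acetamidase, an enzyme that releases ammonia from amides, had 53, 86 and 94 counts in WT, 14, 4 and 9 in the rsm1-labelled strain, and 14, 18 and 12 in the nup211 mutant. Every mutant count lay below every WT count, with log2 fold changes of -3.07 (SE 0.32) and -2.47 (SE 0.29). The exons of fah1 lie whole opposite those of grt1, over 1644 nt, and no source used here states the strand setting of the authors' counting, so the reads of this pair may not be fully separated. On the telomere side of grt1, the urea transporter gene SPBPB8B6.02c had 21, 32 and 24 counts in WT, 1, 4 and 2 in the rsm1-labelled strain, and 5, 4 and 8 in the nup211 mutant. It was low in every mutant library, by 3.37 (SE 0.45) and 2.24 (SE 0.37) on the log2 scale. Only WT had at least 10 counts of SPBPB8B6.02c in every library, so its falls describe these values and are no further support.

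Further in, aes1 lost the most RNA of the members at this end. It had 124, 161 and 117 CPM in WT, 23.8, 21.6 and 24.3 in the rsm1-labelled strain, and 15.4, 18.2 and 19 in the nup211 mutant. No WT library came near a mutant one, and the log2 fold changes were -2.53 (SE 0.14, adjusted p = 4.54e-07) in the rsm1-labelled strain and -2.93 (SE 0.14, adjusted p = 2.78e-07) in the nup211 mutant. The direct difference between the mutants was not called (-0.40, adjusted p = 0.0769), though it was without WT replicate 2. The pseudogene SPBPB21E7.08 next to it had 88.9 ± 26.5 CPM in WT, 55.9 ± 7.65 in the rsm1-labelled strain and 45.5 ± 1.91 in the nup211 mutant. It fell in both, and its call in the rsm1-labelled strain (-0.67, SE 0.22, adjusted p = 0.0304) was lost under scaling by total counts and on leaving out replicate 1 or 2 of that strain or replicate 1 or 3 of the nup211 mutant, with adjusted p-values up to 0.0896.

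On the next clone, 3 genes named after their values had been seen were lower too. The cysteine transporter gene SPBPB10D8.01 had 438, 496 and 621 counts in WT, 152, 140 and 175 in the rsm1-labelled strain, and 113, 142 and 188 in the nup211 mutant. The arylsulfatase gene SPBPB10D8.02c, for an enzyme that releases sulfate from organic esters, had 132, 230 and 163 counts in WT, 77, 62 and 48 in the rsm1-labelled strain, and 33, 27 and 24 in the nup211 mutant. For both, no mutant library overlapped with WT, and the arylsulfatase gene was lower still in the nup211 mutant (direct difference -1.25, SE 0.27, adjusted p = 0.00172). The transporter gene fell by 1.70 (SE 0.16) and 1.89 (SE 0.16) on the log2 scale, and the arylsulfatase gene by 1.47 (SE 0.20) and 2.72 (SE 0.23). The pseudogene SPBPB10D8.03 had 11, 22 and 17 counts in WT, 6, 2 and 4 in the rsm1-labelled strain, and 1, 1 and 6 in the nup211 mutant. It was called lower in both, in the nup211 mutant by 2.67 on the log2 scale and by 3.92 without replicate 3 of that mutant. Only WT had at least 10 counts of it in every library, so its calls describe these values and are no further support.

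The inner part of the stretch belonged to the clone SPBC359. The gene pfl7, for a cell-surface glycoprotein of the DIPSY family, had 114, 110 and 140 counts in WT, 47, 25 and 22 in the rsm1-labelled strain, and 11, 12 and 17 in the nup211 mutant. The 3 groups did not overlap. It fell by 1.93 (SE 0.20, adjusted p = 4.55e-07) in the rsm1-labelled strain and 3.25 (SE 0.23, adjusted p = 1.13e-08) in the nup211 mutant, and the direct difference was -1.32 (SE 0.30, adjusted p = 0.00202). The alanine racemase gene alr2 (SPBC359.02) fell from 3.47 ± 0.470 CPM to 1.34 ± 0.327 and 1.91 ± 0.573, by 1.39 and 0.86 on the log2 scale. Falls of the amino acid permease genes were smaller, 0.84 and 0.29 for SPBC359.01 and 0.37 and 0.38 for aat1 (SPBC359.03c).

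Smaller falls were also found among the nitrogen and ion genes of this end. The L-asparaginase gene SPBPB21E7.09 changed by -1.06 and -0.31, and the second L-asparaginase gene SPBPB8B6.05c by -0.38 and -0.25. The fluoride exporter gene fex2 (SPBPB8B6.06c) changed by -0.48 and -0.34, and the enolase gene eno102 (SPBPB21E7.01c), called in the nup211 mutant, by -0.35. All 4 calls in the nup211 mutant were lost under scaling by total counts, and that of fex2 also without replicate 3 of WT or of the nup211 mutant. The hexose transporter gene ght7 (SPBC1348.14c), just outside the stretch, was called in the rsm1-labelled strain (-0.74, SE 0.31, adjusted p = 0.042), a call lost under scaling by total counts and on leaving out any 1 of that strain's libraries or WT replicate 2 or 3.

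Some genes of this end rose. The catechol O-methyltransferase gene cmt2 (SPBPB21E7.04c), inside the stretch, had 4.52, 6.72 and 6.17 CPM in WT, 17.1, 17.6 and 16.7 in the rsm1-labelled strain, and 37.7, 38.7 and 33.2 in the nup211 mutant. The 3 groups did not overlap, with log2 fold changes of 1.56 (SE 0.11, adjusted p = 1.71e-08) and 2.65 (SE 0.10, adjusted p = 3.91e-11) and a direct difference of 1.09 (SE 0.09, adjusted p = 3.06e-07). On the telomere side of the stretch, the transcription factor gene SPBC1348.12 rose in the nup211 mutant, from 9.86 ± 0.385 to 23.3 ± 1.75 CPM (1.24, SE 0.08, adjusted p = 4.52e-09). It had 10.9 ± 0.819 CPM in the rsm1-labelled strain (0.15, adjusted p = 0.138), and it was called higher there under scaling by total counts.

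On the inner side of pfl7, mug14 (SPBC359.06), for an adducin-family protein of the actin cytoskeleton, had 84, 86 and 74 counts in WT, 385, 404 and 236 in the rsm1-labelled strain, and 73, 111 and 92 in the nup211 mutant. The rsm1-labelled libraries lay above all others, and WT and the nup211 mutant overlapped. The log2 fold changes were 2.08 (SE 0.17, adjusted p = 7.51e-08) and 0.10 (SE 0.20, adjusted p = 0.689), and the direct difference was -1.98 (SE 0.16, adjusted p = 4.55e-07). Its neighbour abc3 (SPBC359.05), for an ABC transporter, had 47.7 ± 3.25 CPM in WT, 90.4 ± 7.98 in the rsm1-labelled strain and 50.1 ± 4.30 in the nup211 mutant, with a direct difference of -0.85 (SE 0.08, adjusted p = 4.57e-06). Noncoding RNAs annotated between the members of this end were counted as well. Of 14 tested, 10 were lower and 1 higher in the rsm1-labelled strain, beside 34.1% of all features lower and 36.7% higher. In the nup211 mutant 9 were lower and 1 higher, beside 32.0% and 32.9%.

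**Figure D4:**
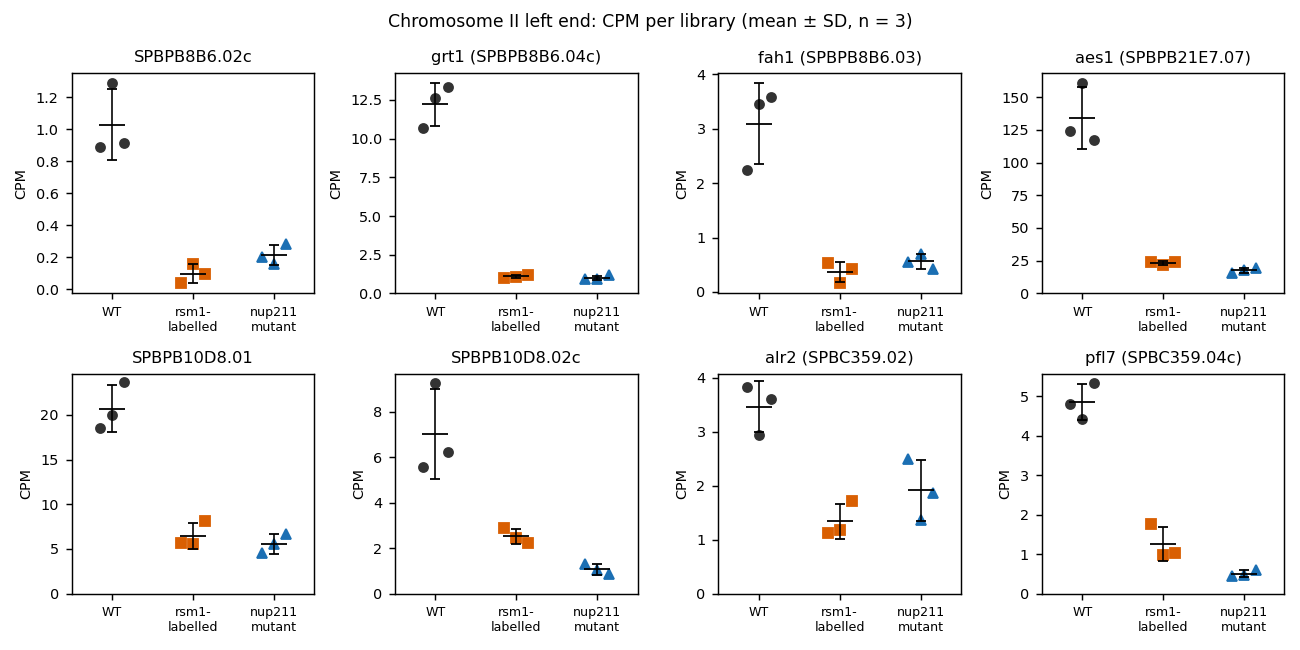
CPM in each library of 8 members of the left end of chromosome II in WT, the rsm1-labelled strain and the nup211 mutant, with the mean and SD of n = 3. In all 8 panels the WT points lie above the points of both mutants, and for pfl7 and SPBPB10D8.02c the nup211 mutant lies lowest.

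At the right end of chromosome I several genes were higher in the nup211 mutant. Of 17 tested members 6 rose and 4 fell in this mutant against WT, beside 32.9% of all features higher and 32.0% lower. In the rsm1-labelled strain 3 rose and 5 fell, beside 36.7% and 34.1%. Only 10 of the 17 had at least 10 counts in every library of all 3 groups. In the direct comparison 9 of the 17 were higher in the nup211 mutant and 0 lower, beside 24.5% and 25.7% of all features. The highest level in the nup211 mutant among them was that of SPAC750.01, for an aldo/keto reductase, a class of enzymes that reduce aldehydes and ketones. It had 157, 1015 and 830 counts in WT, 2349, 1321 and 2341 in the rsm1-labelled strain, and 7902, 8203 and 8818 in the nup211 mutant. The 3 groups did not overlap, and WT replicate 1 was far below the other WT libraries. The log2 fold change was 3.57 (SE 0.53, adjusted p = 0.00102) in the nup211 mutant and 1.63 (SE 0.54, adjusted p = 0.0325) in the rsm1-labelled strain. The latter call was lost on leaving out WT replicate 3, replicate 1 or 3 of its own strain or any library of the nup211 mutant, with adjusted p-values up to 0.0912. The direct difference (1.93, SE 0.47, adjusted p = 0.0145) was lost without replicate 2 of the rsm1-labelled strain (adjusted p = 0.0514).

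SPAC750.01 has a close copy at the left end of the chromosome, SPAC977.14c, with 94.5% protein identity. Of the words of these genes, 67.2% and 70.9% are unique, so part of their reads cannot be assigned to 1 copy. SPAC977.14c, the member with the highest level, had 776, 745 and 783 CPM in WT, 1246, 1251 and 1218 in the rsm1-labelled strain, and 2045, 1895 and 1761 in the nup211 mutant. Its groups did not overlap, and it rose by 0.69 (SE 0.04, adjusted p = 1.01e-08) in the rsm1-labelled strain and by 1.31 (SE 0.04, adjusted p = 2.76e-11) in the nup211 mutant. Of the counts of both copies together, SPAC750.01 took 3.31% ± 2.23 in WT, 6.26% ± 2.12 in the rsm1-labelled strain and 14.3% ± 0.864 in the nup211 mutant.

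Between SPAC750.01 and the telomere, counts varied strongly between replicates. The gene ftm4 (SPAC750.05c), for a protein with transmembrane helices, had 1, 68 and 137 counts in WT, 4, 4 and 48 in the rsm1-labelled strain, and 208, 240 and 305 in the nup211 mutant. SPAC750.06c, for an uncharacterized protein, had 2, 10 and 24 counts in WT, 0, 0 and 8 in the rsm1-labelled strain, and 55, 56 and 50 in the nup211 mutant. For both genes every library of the nup211 mutant lay above every other library, while WT and the rsm1-labelled strain overlapped. In the nup211 mutant against WT, SPAC750.06c was called (2.07, SE 0.54, adjusted p = 0.0064) and ftm4 was not (1.80, SE 0.80, adjusted p = 0.0919). In the direct comparison both were called, SPAC750.06c with 4.16 (SE 0.75, adjusted p = 0.00098) and ftm4 with 3.62 (SE 1.02, adjusted p = 0.0258), the latter lost on leaving out replicate 1 or 2 of the rsm1-labelled strain or any library of the nup211 mutant. Both genes had at least 10 counts in every library only in the nup211 mutant, where they were highest. Their calls therefore describe these values and are no further support. The sizes of these differences are uncertain. Without replicate 3 of the rsm1-labelled strain the fitted difference was 8.72 for SPAC750.06c, whose other libraries of that strain had no count, and 5.91 for ftm4. Without replicate 1 or 2 of that strain the difference of SPAC750.06c was 3.54 or 3.57, and without WT replicate 3 its rise against WT was 3.02. Against WT the rsm1-labelled strain was not called for either gene (-2.09, adjusted p = 0.0934, and -1.82, adjusted p = 0.233), but it was lower without WT replicate 1 for both, and for SPAC750.06c also without its own replicate 3. Of their words, 7.6% and 9.4% are unique.

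WT replicate 1 also stood apart on the adjoining clone. The gene gdt1 (SPAC186.05c), for a GDT1-like protein, had 697, 1704 and 1887 counts in WT, 957, 882 and 762 in the rsm1-labelled strain, and 917, 839 and 949 in the nup211 mutant. WT replicate 1 lay with the mutant libraries, below the other WT libraries. It was not called in either mutant (-0.69, adjusted p = 0.0989, and -0.73, adjusted p = 0.0867), but without WT replicate 1 it was called lower by 0.99 (adjusted p = 3.23e-09) and 1.04 (adjusted p = 2.31e-09).

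Other genes of this clone encode metabolic enzymes. The isomerase gene SPAC186.06 had 57, 159 and 162 counts in WT, 42, 39 and 18 in the rsm1-labelled strain, and 24, 30 and 36 in the nup211 mutant. It was lower in every mutant library than in any WT library, by 1.90 (SE 0.38, adjusted p = 0.00111) and 2.14 (SE 0.38, adjusted p = 0.000657). The L-lactate dehydrogenase gene SPAC186.08c had 1.48 ± 0.908 CPM in WT, 0.436 ± 0.184 in the rsm1-labelled strain and 1.58 ± 0.411 in the nup211 mutant. It was called lower in the rsm1-labelled strain (-1.74, SE 0.52, adjusted p = 0.0107), and the mutants differed directly (1.81, SE 0.51, adjusted p = 0.0122). The pyruvate decarboxylase gene pdc102 (SPAC186.09) was not called in any comparison (0.88, adjusted p = 0.0559 in the nup211 mutant against WT), but was called higher in the nup211 mutant without WT replicate 2 and under scaling by total counts.

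Further from the telomere, yhb1 (SPAC869.02c), for the nitric oxide dioxygenase that detoxifies nitric oxide, had 182, 198 and 141 CPM in WT, 157, 147 and 154 in the rsm1-labelled strain, and 299, 303 and 303 in the nup211 mutant. All libraries of the nup211 mutant lay above all others. Its log2 fold change was 0.80 (SE 0.11, adjusted p = 0.000243) in the nup211 mutant, and the direct difference was 0.98 (SE 0.11, adjusted p = 0.000138). In the rsm1-labelled strain it was not called (-0.18, adjusted p = 0.163), but it was called lower without WT replicate 3 (-0.32, adjusted p = 4.75e-06).

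The melibiase gene mel1 (SPAC869.07c), whose product splits galactose from melibiose, had 8, 13 and 9 counts in WT, 29, 32 and 20 in the rsm1-labelled strain, and 100, 90 and 121 in the nup211 mutant. The groups followed each other without overlap, with log2 fold changes of 1.44 (SE 0.29, adjusted p = 0.000363) and 3.27 (SE 0.22, adjusted p = 6.3e-09). The protein-repair methyltransferase gene pcm2 (SPAC869.08) rose in the nup211 mutant from 0.630 ± 0.294 to 1.63 ± 0.412 CPM (1.37, SE 0.33, adjusted p = 0.00216). The Con-6 family gene SPAC869.09, named after its values had been seen, rose from 0.214 ± 0.0257 CPM in WT to 0.767 ± 0.148 and 0.511 ± 0.179 in the mutants. Its call in the nup211 mutant (1.25, SE 0.42, adjusted p = 0.017) was lost without replicate 3 of WT or of the nup211 mutant. Only the rsm1-labelled strain had at least 10 counts of this gene in every library, so its rise in that strain is no further support.

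Several genes for the cell surface and for uptake at this end were lower in both mutants. The DIPSY-family glycoprotein gene pfl9 (SPAC186.01) had 12.7, 9.22 and 8.19 CPM in WT, 2.70, 2.60 and 3.11 in the rsm1-labelled strain, and 6.17, 6.03 and 7.53 in the nup211 mutant. Its groups did not overlap, and it fell by 1.84 (SE 0.18, adjusted p = 4.61e-07) in the rsm1-labelled strain and by 0.60 (SE 0.15, adjusted p = 0.00333) in the nup211 mutant, with a direct difference of 1.24 (SE 0.19, adjusted p = 9.22e-05). The proline transporter gene put4 (SPAC869.10c) fell from 44.1 ± 2.06 CPM to 22.2 ± 3.76 and 28.9 ± 0.637 (-0.99, SE 0.09, and -0.61, SE 0.09). The arginine and lysine transporter gene cat1 (SPAC869.11) fell from 136 ± 4.90 CPM to 114 ± 4.65 and 121 ± 4.0 (-0.25, SE 0.04, and -0.17, SE 0.04), the call in the nup211 mutant being lost under scaling by total counts. The sulfate transporter gene sul2 (SPAC869.05c) was not called, at 45.3 ± 10.5 CPM in WT, 46.4 ± 2.34 and 52.0 ± 3.45.

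**Figure D5:**
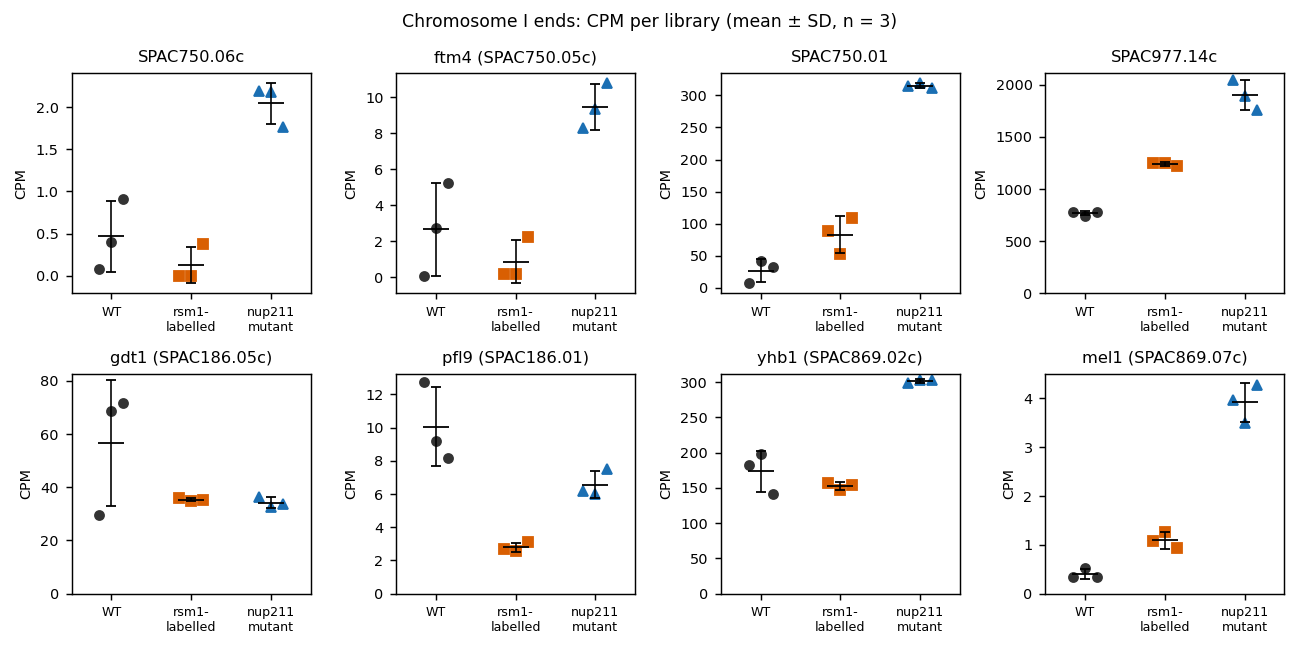
CPM in each library of 7 members of the right end of chromosome I and of SPAC977.14c, the left-end copy of SPAC750.01, in WT, the rsm1-labelled strain and the nup211 mutant, with the mean and SD of n = 3. The nup211 mutant lies highest in all panels but those of gdt1 and pfl9.

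The left end of chromosome I held changes in both directions. Of 33 tested members 12 rose and 9 fell in the rsm1-labelled strain, beside 36.7% of all features higher and 34.1% lower. In the nup211 mutant 13 rose and 10 fell, beside 32.9% and 32.0%. The called members were 63.6% and 69.7% of those tested, beside 70.7% and 64.9% of all features. The gene dak2 (SPAC977.16c), for dihydroxyacetone kinase, an enzyme of glycerol use, had 67.7, 63.8 and 69.8 CPM in WT, 186, 180.2 and 197 in the rsm1-labelled strain, and 62.1, 57.7 and 56.9 in the nup211 mutant. The rsm1-labelled libraries were far above the rest, and the nup211 mutant was just below WT. Its log2 fold changes were 1.48 (SE 0.05, adjusted p = 2.21e-12) and -0.19 (SE 0.05, adjusted p = 0.0029), and the second call was lost under scaling by total counts (-0.05, adjusted p = 0.293). The neighbouring gene SPAC977.15, for a dienelactone hydrolase family protein, had 15.2, 14.6 and 14.2 CPM in WT, 8.24, 8.54 and 7.33 in the rsm1-labelled strain, and 17.2, 20.8 and 18.1 in the nup211 mutant. Here the rsm1-labelled strain was lowest and the nup211 mutant highest, without overlap, by -0.86 (SE 0.09, adjusted p = 7.71e-07) and 0.35 (SE 0.08, adjusted p = 0.00167) on the log2 scale.

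On the same clone the pseudogene SPAC977.13c had 82, 52 and 76 counts in WT, 306, 302 and 235 in the rsm1-labelled strain, and 173, 227 and 209 in the nup211 mutant. It was higher in every mutant library than in any WT library (2.02, SE 0.15, and 1.45, SE 0.15). The adjacent L-asparaginase gene SPAC977.12 fell from 100.2 ± 1.62 CPM to 65.8 ± 2.36 and 75.4 ± 3.15 (-0.61, SE 0.04, and -0.41, SE 0.04). The gene nhe1 (SPAC977.10), for a sodium ion/proton antiporter, fell from 119 ± 2.55 CPM to 74.8 ± 2.24 and 79.2 ± 5.75 (-0.67, SE 0.05, and -0.59, SE 0.05). The fluoride exporter gene fex1 (SPAC977.11) fell from 10.7 ± 0.262 CPM to 6.42 ± 0.383 and 6.67 ± 0.641 (-0.74, SE 0.10, and -0.68, SE 0.10). SPAC977.12 and fex1 have copies at the left end of chromosome II, SPBPB8B6.05c with 99.7% protein identity and fex2 with an identical protein, and 26.7% and 25.9% of their words are unique. Of the counts of the asparaginase pair, SPBPB8B6.05c took 35.6% ± 0.891 in WT, 39.3% ± 2.07 in the rsm1-labelled strain and 38.2% ± 0.295 in the nup211 mutant.

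On the inner clone SPAC11D3, the acetyltransferase gene SPAC11D3.02c had 223, 230.1 and 242 CPM in WT, 109, 106 and 108 in the rsm1-labelled strain, and 99.5, 91.8 and 93.1 in the nup211 mutant. All mutant libraries were far below WT, by 1.11 (SE 0.04, adjusted p = 7.22e-12) and 1.29 (SE 0.04, adjusted p = 1.13e-12) on the log2 scale. The next gene, SPAC11D3.03c, for an uncharacterized protein, fell in the nup211 mutant (-0.82, SE 0.13, adjusted p = 5.86e-05), with a direct difference of -0.70 (SE 0.13, adjusted p = 0.000545). Both genes lie whole opposite the noncoding RNA SPNCRNA.608, so their reads may not be fully separated from it. The membrane transporter gene mfs2 (SPAC11D3.05) fell in the rsm1-labelled strain from 10.3 ± 0.684 to 5.31 ± 0.456 CPM (-0.95, SE 0.17) and had 8.68 ± 2.29 CPM in the nup211 mutant, with a direct difference of 0.71 (SE 0.17, adjusted p = 0.00426).

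Genes that rose on this clone included SPAC11D3.01c, of the Con-6 family like SPAC869.09, which went from 17 ± 0.314 CPM to 34.9 ± 2.25 and 24.9 ± 0.399 (1.04, SE 0.06, and 0.55, SE 0.06). The glyoxylase gene hsp3104 (SPAC11D3.13), whose product removes methylglyoxal, rose by 0.34 (SE 0.08) and 0.55 (SE 0.08). The 5-oxoprolinase gene SPAC11D3.15, for an enzyme of glutathione turnover, rose in the nup211 mutant from 119 ± 6.20 to 148 ± 3.46 CPM (0.31, SE 0.04). The transcription factor genes toe4 (SPAC11D3.07c) and SPAC11D3.17, the latter named after its values had been seen, rose in the rsm1-labelled strain by 0.36 (SE 0.04) and 0.50 (SE 0.05). They were not called in the nup211 mutant (0.08, adjusted p = 0.103, and 0.09, adjusted p = 0.177), but both were called higher there under scaling by total counts, and toe4 also without WT replicate 2. The uncharacterized gene SPAC11D3.16c changed by 0.18 (SE 0.06, adjusted p = 0.0101) in the rsm1-labelled strain and by -0.18 (SE 0.06, adjusted p = 0.0118) in the nup211 mutant. The first call was lost without WT replicate 1, and the second without replicate 1 of the nup211 mutant and under scaling by total counts.

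At the right end of chromosome II, 14 members were tested. In the rsm1-labelled strain 2 rose and 2 fell, or 28.6% of those tested beside 70.7% of all features. In the nup211 mutant 3 rose and 6 fell, or 64.3% beside 64.9%. The genes of galactose use form a cluster here. The epimerase gene gal10 (SPBPB2B2.12c) had 15.9, 18.6 and 13.8 CPM in WT, 21.4, 20.9 and 20.3 in the rsm1-labelled strain, and 11.8, 12.1 and 10.2 in the nup211 mutant. The rsm1-labelled libraries were highest and those of the nup211 mutant lowest, without overlap (0.38, SE 0.10, adjusted p = 0.00245, and -0.50, SE 0.10, adjusted p = 0.000485). The galactokinase gene gal1 (SPBPB2B2.13) was lower in the nup211 mutant (-0.33, SE 0.05, adjusted p = 3.07e-05), as was the uridylyltransferase gene gal7 (SPBPB2B2.10c) (-0.27, SE 0.09, adjusted p = 0.0182). The call of gal7 was lost without WT replicate 2 or replicate 1 of the nup211 mutant and under scaling by total counts. In the rsm1-labelled strain neither was called (log2 fold change -0.02 for gal1 and -0.02 for gal7), and under scaling by total counts gal1 was called higher (0.12, adjusted p = 0.0396).

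The exons of gal10 share 3291 nt on opposite strands with tgd1 (SPBPB2B2.11), for a nucleotide-sugar dehydratase, so the counts of this pair may not be fully separated. The gene tgd1 had 8.77 ± 0.0489 CPM in WT and was called lower in both mutants (-0.26, SE 0.09, adjusted p = 0.0194, and -0.27, SE 0.09, adjusted p = 0.0163). Both calls were lost under scaling by total counts, and the first also without replicate 2 or 3 of the rsm1-labelled strain.

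The gene pan5 (SPBPB2B2.09c), for an enzyme of pantothenate synthesis, had 126, 121 and 118 CPM in WT, 68.5, 65.5 and 76.2 in the rsm1-labelled strain, and 72.6, 71.0 and 71.2 in the nup211 mutant. Both mutants lay below WT and overlapped each other (-0.80, SE 0.05, adjusted p = 1.04e-09, and -0.77, SE 0.05, adjusted p = 1.94e-09). The glutamine amidotransferase gene SPBPB2B2.05 rose from 6.84 ± 1.65 CPM to 16.6 ± 0.240 and 10.2 ± 0.792, with a direct difference of -0.70 (SE 0.12, adjusted p = 0.00021). The phosphatase gene SPBPB2B2.06c rose in the nup211 mutant from 9.51 ± 1.16 to 18.6 ± 3.31 CPM and had 9.83 ± 1.96 in the rsm1-labelled strain, a direct difference of 0.93 (SE 0.16, adjusted p = 0.000656). In the nup211 mutant the uncharacterized gene SPBPB2B2.08 fell by 1.00 (SE 0.24, adjusted p = 0.00197), and the sterol deacetylase gene say1 (SPBPB2B2.02) rose by 0.32 (SE 0.11), a call lost without WT replicate 1 or replicate 3 of the nup211 mutant. The amino acid permease gene nrg1 (SPBPB2B2.01) was not called against WT in either mutant. It was called higher in the rsm1-labelled strain without WT replicate 3 and under scaling by total counts (0.38, adjusted p = 0.0348). The direct difference was called (-0.47, adjusted p = 0.0273), but not without replicate 1 or 3 of the rsm1-labelled strain or replicate 1 or 2 of the nup211 mutant.

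The telomere-linked helicase genes, a common readout of telomeric silencing in this yeast, had low counts in all 3 strains. The gene tlh1 (SPAC212.11) had 1, 1 and 0 counts in WT, 1, 0 and 0 in the rsm1-labelled strain, and 4, 0 and 2 in the nup211 mutant, too few to test. Its copy tlh2 (SPBCPT2R1.08c) had 14, 3 and 21 counts in WT, 0, 7 and 3 in the rsm1-labelled strain, and 25, 8 and 23 in the nup211 mutant. WT overlapped with both mutants, and neither was called against it (-1.86, SE 0.87, adjusted p = 0.0741, and 0.47, SE 0.59, adjusted p = 0.499), but the rsm1-labelled strain was lower without replicate 2 of WT or of that strain. The mutants did not overlap each other and differed (2.34, SE 0.80, adjusted p = 0.0301), a call lost on leaving out replicate 1 or 3 of either. The difference ran from 1.71 without replicate 1 of the rsm1-labelled strain to 3.40 without its replicate 2. Of the words of tlh1 and tlh2, 0.9% and 6.8% are unique. The other tested helicase member, SPAC212.06c, was not called in any comparison. Its log2 fold changes were -0.09 in the rsm1-labelled strain and -0.27 in the nup211 mutant, and its direct difference was -0.19.

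Low counts of the same kind were found beside the helicase genes. The GPI-anchored protein gene SPAC212.08c, named after its values had been seen, had 10, 6 and 5 counts in WT, 7, 2 and 1 in the rsm1-labelled strain, and 23, 22 and 12 in the nup211 mutant. The nup211 mutant lay above all other libraries, but its rise against WT (1.35, SE 0.46, adjusted p = 0.0178) was lost without WT replicate 3 or replicate 1 or 2 of the nup211 mutant. The direct difference between the mutants (2.37, adjusted p = 0.00214) was called in every refit without 1 library. Only the nup211 mutant had at least 10 counts of this gene in every library, so neither call is further support. SPAC212.12, also for a GPI-anchored protein, had 25, 11 and 12 counts in WT, 5, 6 and 5 in the rsm1-labelled strain, and 17, 38 and 32 in the nup211 mutant. It was called lower in the rsm1-labelled strain (-1.54, SE 0.52, adjusted p = 0.0147), a call lost without replicate 1 of WT or of that strain. The direct difference between the mutants was 2.31 (adjusted p = 0.000702) and was called in every refit without 1 library. In the nup211 mutant it was not called against WT (0.77, adjusted p = 0.0727). It was called higher there without replicate 1 of either group and under scaling by total counts (0.90, adjusted p = 0.0356). None of its words is unique. By contrast SPAC212.04c, for an uncharacterized protein, was counted steadily, with 115, 122 and 127 counts in WT, 173, 176 and 156 in the rsm1-labelled strain, and 215, 212 and 231 in the nup211 mutant. It rose in both mutants without overlap (0.50, SE 0.10, adjusted p = 0.000418, and 0.77, SE 0.10, adjusted p = 5.17e-06).

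The ftm family had 8 members, of which 4 were tested, and none of these was called against WT in either mutant. Apart from ftm4 they were low, such as ftm1 (SPAC977.01) at 0.973 ± 0.357 CPM in WT and ftm5 (SPBC1348.02) at 0.491 ± 0.0996. Not tested were ftm2, ftm6 and ftm7, with means of 0.454, 0.0127 and 0.0254 CPM in WT, and ftm3, which had no count in WT. Also below the filter were the glycoprotein gene pfl6 at 0.188 CPM, the phospholipase gene plb4 at 0.0134, the gene hry1 for a cation-binding protein at 0.0134, and the dehydrogenase gene ayr2, which had no count.

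The members were grouped by annotated role, to be read beside all features, of which 36.7% were higher and 34.1% lower in the rsm1-labelled strain and 32.9% and 32.0% in the nup211 mutant. Of 20 tested transporter genes, 3 rose and 11 fell in each mutant, with a median log2 fold change of -0.45 in the rsm1-labelled strain and -0.36 in the nup211 mutant, beside 0.01 for all features. Among those that fell in both were the genes above for transporters of urea, cysteine, proline, arginine and lysine, fluoride and sodium. Of 8 tested oxidoreductase and detoxification genes, 4 rose and 2 fell in the rsm1-labelled strain, and 6 rose and 1 fell in the nup211 mutant. Of 9 tested enzymes of carbon and sugar use, 3 rose and 2 fell in the former, and 1 rose and 6 fell in the latter. Of 10 tested enzymes of nitrogen and amino acid use, 1 rose and 5 fell, and 3 rose and 5 fell. The roles were assigned from the annotation with the values known.

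Factors of subtelomeric and telomeric chromatin were taken as a list of 46 genes, all tested. In the rsm1-labelled strain 30 were higher and 8 lower than in WT, and in the nup211 mutant 26 were higher and 6 lower, beside the shares of all features just given. Their median log2 fold change was 0.19 in both, beside 0.01 for all features. Under scaling by total counts the median of all features itself moved by 0.14 and 0.13. The histone methyltransferase gene clr4 had 37.1 ± 1.94 CPM in WT, 65.7 ± 2.08 in the rsm1-labelled strain and 67.0 ± 2.94 in the nup211 mutant (0.82, SE 0.05, adjusted p = 1.27e-09, and 0.85, SE 0.05, adjusted p = 1.05e-09). The gene mit1, for the remodeller of the SHREC silencing complex, rose by 0.95 (SE 0.05) and 0.79 (SE 0.05). The gene bqt2, for a protein that acts on telomeres in meiosis, went from 0.645 ± 0.258 to 1.37 ± 0.274 CPM in the rsm1-labelled strain (1.09, SE 0.30, adjusted p = 0.00448). The genes arb2, for a partner of Argonaute, and swi6 fell in both, arb2 by 0.59 and 0.45 and swi6 by 0.14 and 0.32. The SHREC subunit gene clr2 had 44.0 ± 1.73 CPM in WT, 33.4 ± 1.73 in the rsm1-labelled strain and 36.7 ± 1.21 in the nup211 mutant (-0.39, SE 0.05, adjusted p = 7.01e-06, and -0.26, SE 0.05, adjusted p = 0.00034). The part of these levels in the members' values was not tested.

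In the authors' deposited table for the rsm1-labelled strain, 23 members were higher and 34 lower at an adjusted p under 0.05, of which 21 and 32 were called in the same direction here. In the authors' deposited table for the nup211 mutant, 25 were higher and 41 lower, of which 22 and 38 were called in the same direction here. No member had opposite calls in the authors' deposited tables and here. Some were called in only 1 of the 2, such as SPAC750.06c in the nup211 mutant, called here but not by the authors' DESeq2 test (adjusted p = 0.171). The gene pdc102, not called here, was called higher by the authors there (adjusted p = 0.0205).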

How the data were processed

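The deposited table of counts per annotated feature was made by the authors from paired-end stranded poly(A)+ RNA-seq, with HISAT2 2.1.0, SAMtools, HTSeq 0.10.0 and DESeq2 and the build ASM294v2, per the submitters' processing notes. No source used here states the annotation, the strand setting or the treatment of multiply mapping reads. The authors also deposited normalized counts (a signal per library), log2 fold changes, test scores and p-values from their own comparisons. From these only their log2 fold changes and adjusted p-values were used, as named in the text.

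Members and lists were chosen with earlier results of these data known. Counts were tested with edgeR 4.0.16 in R 4.3.3 (quasi-likelihood, robust, TMM scaling, 9 libraries, no covariate). A filter of at least 10 counts (total 15) left 6227 of 6988 features, and p-values were adjusted by Benjamini-Hochberg. Depth was 20984220 to 28105939 counts per library. The biological coefficient of variation, from the dispersion common to all features tested, was 3.95%, and some members varied far more between replicates. Replicates differed by more than counting error (chi-square per degree of freedom 2.80 to 11.9). The reference annotation is of another build (ASM294v3), and served for names, products, gene order, exon lengths, overlaps, protein identity (blastp 2.17.0) and unique 50-base words, so no coordinates or sequences are given. Floors at a given depth cover counting error only, while the SEs come from the fit and include the spread between replicates. The test was checked on simulated counts for the comparison of the rsm1-labelled strain with WT over 6227 features. It recovered 87% of 1.5-fold and 97% of 2-fold changes, and 7.07% of its calls were false, above the nominal 5%. Only a small part of the features was changed in the simulation, in random directions. In the data 70.7% of all features were called, so these rates may not hold for them.

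Named were, per comparison and end, up to 3 of the largest called rises and falls with at least 1 CPM in a group, all members with a symbol, the 10 highest in WT, members called in opposite directions, and the extremes of the chromatin list; 8 more were named after their values had been seen. Alternatives were DESeq2 1.42.0, its size factors, total-count scaling, no filter, fewer libraries, a replicate block, and leaving out members with copies or overlaps.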

Additional observations from a re-analysis of the deposited data

Results flagged for a closer look

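In the mutants 5 members were called in opposite directions against WT. Choosing them so fixes a difference between the mutants, so the direct differences of the nup211 mutant from the rsm1-labelled strain, by edgeR's quasi-likelihood test, describe their size and are no further support. The dihydroxyacetone kinase gene dak2 (SPAC977.16c) was lower in the nup211 mutant, with a log2 difference of -1.67 (SE 0.05, adjusted p = 1.31e-12). Its neighbour SPAC977.15, for a dienelactone hydrolase family protein, was higher by 1.21 (SE 0.09, adjusted p = 7.58e-08). The galactose epimerase gene gal10 (SPBPB2B2.12c) had a difference of -0.88 (SE 0.10, adjusted p = 4.37e-06). The uncharacterized gene SPBPB21E7.11 had 45, 32 and 42 counts in WT, 64, 75 and 56 in the rsm1-labelled strain, and 22, 31 and 30 in the nup211 mutant, and the difference was -1.33 (SE 0.20, adjusted p = 7.4e-05). Its groups did not overlap in CPM, but its call in the nup211 mutant against WT (-0.60, adjusted p = 0.0271) was lost without replicate 1 or 3 of either group and under scaling by total counts. SPAC11D3.16c differed by -0.36 (SE 0.06, adjusted p = 9.79e-05). Its calls against WT were close to the threshold, with adjusted p-values up to 0.0517 in the rsm1-labelled strain and 0.0513 in the nup211 mutant on leaving out 1 library, while the fold changes kept to 0.14 to 0.21 and -0.22 to -0.14.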

How the results depend on the processing

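Counts of called members kept within 1.5 times under DESeq2, its size factors, no filter, the 6 libraries compared, the outermost 40 rows, and without members that have near-identical copies, though the last took the higher members in the direct comparison from 27 to 18 and those at least 2-fold higher from 12 to 6. Leaving out the 104 members overlapped by any annotated gene left 17 tested, with 2 higher and 4 lower in the rsm1-labelled strain, 3 and 5 in the nup211 mutant, and 6 and 3 in the direct comparison. Leaving out members with under 90% unique words, an alternative chosen after seeing the data, gave 17 higher in the direct comparison. Under scaling by total counts gal1 (SPBPB2B2.13) turned to a rise of 0.12 in the rsm1-labelled strain, and the direct comparison split into 27 higher and 23 lower, beside 1450 and 1650 of all features. The causes were not tested, beyond the smaller number of members in the first 2 of these. Leaving out 1 library at a time gave 20 to 23 higher and 30 to 34 lower in the rsm1-labelled strain, 22 to 28 and 34 to 40 in the nup211 mutant, and 22 to 32 and 21 to 26 in the direct comparison. Of the calls, 46 of 53, 52 of 62 and 40 of 51 held in all 9 of these refits. Replicate numbers did not pair the libraries, since same-numbered libraries had correlations of -0.08 to 0.08 in their deviations from the group means. With a replicate block the counts were 21 and 30, 24 and 39, and 28 and 23. Members under 3 counts per library, mostly those nearest the telomeres, lay below what this depth can compare.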
